A study of Gallus gallus with 6 samples.

Results

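The genes described here are 5 transcription factors that build the heart (NKX2-5, TBX5, HAND1, HAND2 and MEF2C) and 5 genes of the sarcomere, the contractile unit of heart muscle (CSRP3, ACTN2, MYL4, ACTC1 and TNNT2). They were chosen by gene symbol: every probe set of the array whose annotation gives 1 of these names, and no other, was taken, which gave 15 of the 27166 probe sets with 1 symbol and 10 of 13008 named genes. The samples were chick epiblast, the outer layer of the early embryo. Lateral head mesoderm cut from HH6 embryos was grafted into the area opaca, the extraembryonic rim, of HH4- hosts, and 12 hours later the graft was lifted off and the epiblast beneath was taken as the induced group, with the opposite area opaca, which had no graft, as the control group. Both groups came from the same stage of host, with no other treatment in the labels, and the controls had no graft rather than a graft of another tissue. Each of 3 induced and 3 control samples was read on 1 Affymetrix array, and the comparison asks which transcripts change while mesoderm induces precursors of the sensory placodes. The sources used here do not say whether a sample pooled several embryos.

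Heart muscle arises from mesoderm at the front and sides of the early embryo, the same region from which lateral head mesoderm is cut. There NKX2-5, a homeodomain protein, and GATA and T-box proteins act together on shared target genes, HAND1 and HAND2 are basic helix-loop-helix proteins of the heart tube and lateral plate, and MEF2C is a MADS-box protein that switches on muscle genes. The sarcomere genes act downstream: CSRP3 and ACTN2 encode proteins of the Z-disc, which anchors the thin filaments, ACTC1 and TNNT2 encode the actin and the troponin T of these filaments in heart muscle, and MYL4 encodes an essential light chain of myosin in the atria and the embryonic heart. Several of these proteins are not confined to the heart. NKX2-5 is also made in pharyngeal endoderm, and HAND1 is known from extraembryonic mesoderm in the mouse.

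The medians of the arrays ran from 7.5 to 18.35 signal units, with both arrays of repeat 1 the brightest, and 46.9% to 63.7% of probe sets on an array lay under 16 units. Signals were therefore brought to a common distribution, and the levels below are log2(signal + 16) after that step, on which 4 is a signal of 0. Adding 16 makes the fold change of a weak gene too small. Of the 15 probe sets, 9 lay above a filter on the mean level over all 6 arrays and were tested with limma over 22614 probe sets. The number of arrays limits the precision, and an exact permutation test of 1 gene with 3 against 3 arrays cannot give a p under 0.1. On a list of 15 epiblast and surface ectoderm markers, all 14 measured genes lay above the filter in at least 1 probe set. Among them were the epithelial genes CDH1 and EPCAM and the keratin gene KRT7. The filter leaves out only the lowest 40% of probe sets, and 15 of 17 measured blood and endothelium genes also lay above it. This count therefore does not identify the tissue. The summed normalized signal of the epiblast and surface ectoderm list was 11319.7 to 13965 units among controls and 11945 to 12591 among induced arrays.

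Of the 10 genes, only NKX2-5 passed the test over all probe sets, and it rose. Its level was 4.82, 4.50 and 5.08 in controls 1 to 3, against 7.03, 6.70 and 6.38 in induced arrays 1 to 3. All 3 induced arrays thus lay above all 3 controls, with no overlap. The controls were near the bottom of the scale, with deposited signals of 19.5, 4.6 and 15.8 units, against 199.4, 73.6 and 42.0 in the induced samples. The mean went from 4.80 ± 0.29 to 6.70 ± 0.32 (SD, n = 3 each), which is a log2 difference (induced minus control, as throughout) of 1.90 (standard error 0.231, 95% interval 1.38 to 2.41, limma adjusted p = 0.0197), or 3.73-fold on this scale. This was the 18th largest rise and the 10th lowest p among the probe sets tested. Of those, 15 passed as higher (0.0663%) and 7 as lower (0.031%), 0.0973% in either direction. The difference within a repeat number was 2.21, 2.19 and 1.30 in repeats 1 to 3.

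The size of the NKX2-5 rise depended on the added constant, and its call on single arrays. With 1 in place of 16 the log2 difference was 2.87, and with 64 it was 1.02, and both passed. Over the 16 other settings tried, the log2 difference was above 0 in 16 and passed in 10, with limma adjusted p of at most 0.172. The lowest adjusted p, 1.03e-10, came from the repeat number as a block on values not normalized between arrays, where 587 probe sets passed. The next lowest was 0.0103, without induced sample 3. The call was lost without control sample 2 (limma adjusted p = 0.0581), control 3 (0.0505), induced 1 (0.0932) or induced 2 (0.13). The log2 difference in these settings was 1.79, 2.06, 1.67 and 1.91, in that order. The call held without control 1 (1.84, adjusted p = 0.0336) and without induced 3 (2.13, adjusted p = 0.0103). Without both bright arrays of repeat 1 the log2 difference was 1.58 (adjusted p = 0.172), and with no normalization between arrays 1.86 (adjusted p = 0.0978).

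**Figure D1:**
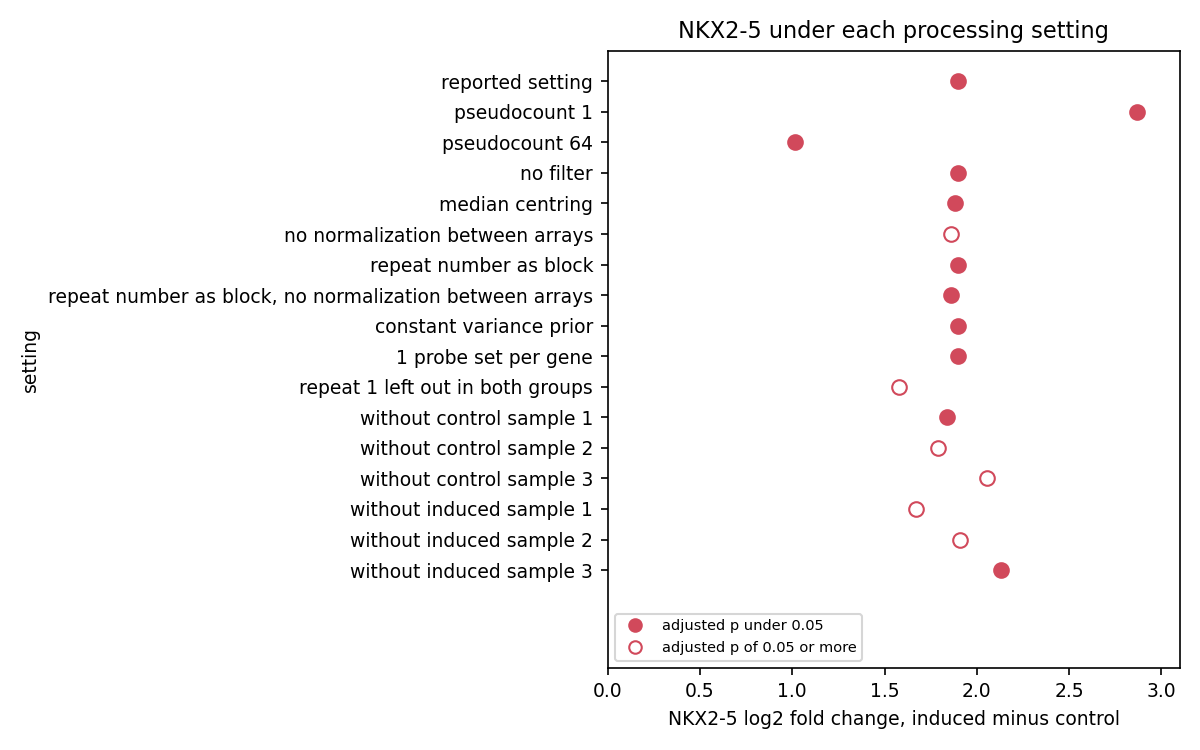
Log2 fold change of NKX2-5 (x axis, induced minus control) under the reported setting and each of the 16 other settings (y axis), with filled points where the limma adjusted p was under 0.05. All points lie to the right of 0, between 1.02 and 2.87, and 6 of the alternatives are open.

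No other factor passed. HAND2 had levels of 6.49, 5.88 and 6.48 in controls 1 to 3, against 6.29, 5.74 and 6.52 in induced arrays 1 to 3, so that the groups overlapped. Its log2 difference was -0.10 (standard error 0.26, 95% interval -0.68 to 0.48, limma adjusted p = 0.955). HAND1 had 6.25, 5.51 and 5.61 in the controls, against 5.81, 5.40 and 5.35 in the induced samples, again with overlap, and a log2 difference of -0.27 (standard error 0.24, 95% interval -0.81 to 0.26, adjusted p = 0.805). Neither interval reaches the 1.90 of NKX2-5, although the difference between genes was not tested. The interval of HAND2 leaves room for a fall of 0.68 or a rise of 0.48 on the log2 scale, that of HAND1 for a fall of 0.81 or a rise of 0.26. Both probe sets are of a kind that can be shared by several transcripts, so that signal of related transcripts cannot be told apart from theirs.

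TBX5, which patterns the posterior heart field and the forelimb, was near the floor on every array. Its 3 probe sets gave deposited signals of 0.5 to 14.5, 0.3 to 8.6 and 0.1 to 7.4 units over the 6 arrays. The 3 probe sets of MEF2C were as weak, at 0.4 to 8.0, 0.2 to 9.8 and 0.5 to 14.2 units. All 6 of these lay under 16 units on all 6 arrays and below the filter. Tested without a filter, they had log2 differences of -0.20 to 0.018, none with an unadjusted p under 0.05 by limma. At this signal no difference was detectable, which does not show that the transcripts were absent.

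**Figure D2:**
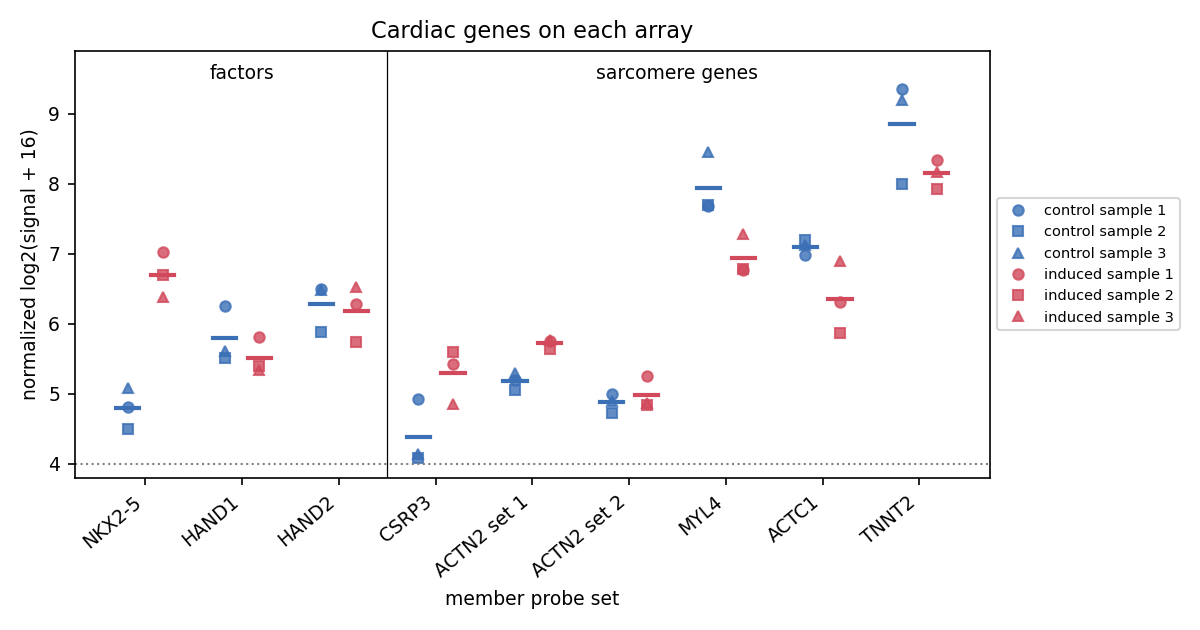
Normalized log2(signal + 16) (y axis) of the 9 member probe sets above the filter (x axis) on each array, with symbols for the sample number, blue for controls, red for induced samples and bars for group means. The dotted line at 4 is a signal of 0. NKX2-5 and the first ACTN2 probe set are higher in all induced arrays, MYL4 and ACTC1 lower in all of them.

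The sarcomere genes split in 2 directions and none passed by limma over all probe sets, although 5 of their 6 probe sets had an unadjusted p under 0.05, as did 9.76% of all probe sets tested. Log2 differences were above 0 for the probe sets of CSRP3 and ACTN2 and below 0 for those of MYL4, ACTC1 and TNNT2. CSRP3 had levels of 4.93, 4.09 and 4.15 in controls 1 to 3, against 5.43, 5.59 and 4.86 in induced arrays 1 to 3. Induced sample 3 lay just below control sample 1, so the groups overlapped. The log2 difference was 0.90 (standard error 0.266, 95% interval 0.31 to 1.5, limma adjusted p = 0.28). The control mean of 4.39 lies below the filter, so CSRP3 was tested only because of its induced arrays. Its deposited signals were 23.2, 0.6 and 1.5 units in the controls, where the added constant sets most of the level. With 1 in place of 16 the log2 difference was 2.42.

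ACTN2, the muscle alpha-actinin, was read by a pair of probe sets. The first had 5.20, 5.06 and 5.30 in the controls, against 5.76, 5.64 and 5.77 in the induced samples. These groups did not overlap, and the log2 difference was 0.54 (standard error 0.17, 95% interval 0.16 to 0.92, limma adjusted p = 0.313). The second had 4.99, 4.73 and 4.90 in the controls, against 5.25, 4.85 and 4.87 in the induced samples, with overlap and a log2 difference of 0.11 (standard error 0.178, adjusted p = 0.916). The probe sets thus disagree on the size, and the second lay nearer the floor, under 16 units on 4 of 6 arrays.

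MYL4 was the member with the lowest p after NKX2-5. Its levels were 7.69, 7.70 and 8.45 in controls 1 to 3, against 6.76, 6.79 and 7.28 in induced arrays 1 to 3. Every induced array lay below every control. The log2 difference was -1.0 (standard error 0.253, 95% interval -1.57 to -0.44, limma adjusted p = 0.211), from a mean of 7.95 ± 0.44 to 6.94 ± 0.29 (SD, n = 3 each). Within repeat numbers the difference was -0.93, -0.91 and -1.17. ACTC1 had 6.98, 7.20 and 7.12 in the controls, against 6.31, 5.87 and 6.90 in the induced samples. Its groups did not overlap either, though induced sample 3 came within 0.1 of control sample 1. The log2 difference was -0.75 (standard error 0.259, 95% interval -1.32 to -0.17, adjusted p = 0.363).

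TNNT2 had 9.36, 8.0 and 9.19 in controls 1 to 3, against 8.34, 7.93 and 8.17 in induced arrays 1 to 3. Control sample 2 fell among the induced arrays, so the groups overlapped. The log2 difference was -0.70 (standard error 0.314, 95% interval -1.40 to -0.00063, limma adjusted p = 0.512). Deposited signals of TNNT2 were 1099.3, 170.1 and 486.8 units in the controls, and those of MYL4 were 326.3, 136.3 and 285.5. Transcripts of these filament genes were thus well above the floor in area opaca that had received no graft. Without control sample 2 the TNNT2 difference was -1.12 (adjusted p = 0.0976), and without control sample 1 it was -0.44.

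Set side by side, the 3 factor probe sets tested had a median log2 difference of -0.10, and the 6 sarcomere probe sets one of -0.29, beside 0.0091 over all probe sets tested. The medians hide the spread within each class, from -0.27 to 1.90 among the factors and from -1.0 to 0.90 among the sarcomere genes. Of the 9 probe sets tested, 1 passed, against 0.0973% of all tested, and 4 had groups that did not overlap (NKX2-5 and the first ACTN2 probe set above, MYL4 and ACTC1 below), against 14.4% of all, 7.74% above and 6.65% below. The filter let CSRP3 through by its induced arrays, and TBX5 and MEF2C are not among the 9, so these counts describe the members and are no support for a shift. With 1 probe set for each gene NKX2-5 again passed (adjusted p = 0.0115), among 0.376% of genes, and the sarcomere median was -0.70, because the second ACTN2 probe set drops out. The difference between the classes was not tested.

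**Figure D3:**
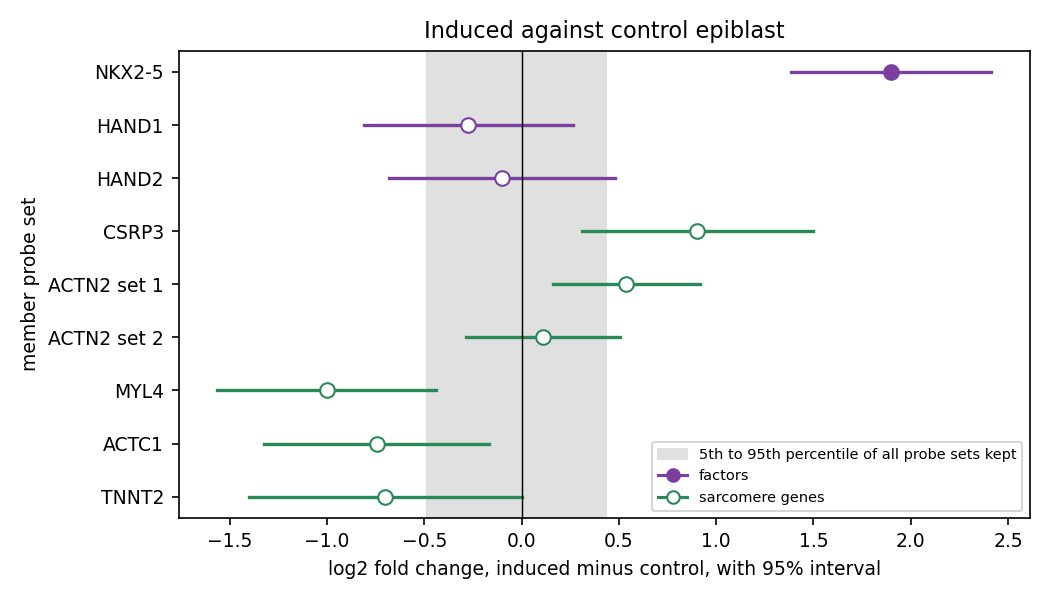
Log2 fold change (x axis, induced minus control) with the 95% interval from limma for each member probe set above the filter (y axis), factors in purple and sarcomere genes in green, filled where the adjusted p was under 0.05. The grey band spans the 5th to 95th percentile of all probe sets tested, -0.49 to 0.43. NKX2-5 at 1.90 is the one filled point, and the sarcomere genes fall on both sides of 0.

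Across the 6 arrays, the first ACTN2 probe set followed NKX2-5 with a Pearson r of 0.97 and CSRP3 with 0.83, while MYL4 and ACTC1 had -0.81 and -0.82. MYL4 and ACTC1 had an r of 0.83 with each other. These values share the contrast between the groups and the same 6 arrays, and are given as a description. HAND1 and HAND2 had -0.32 and -0.10 with NKX2-5. Outside the set, the named genes most like NKX2-5 over the 6 arrays were C8orf22, EPHB6, GLUL, UBXN4 and KRTCAP3, with r of 0.989 to 0.995. EPHB6 is an Eph-family receptor, and GLUL makes glutamine. These genes were picked for the highest r over the same contrast and arrays, so the size of r is no support for a link. Their log2 differences ran from 0.40 to 0.93, smaller than that of NKX2-5, and none passed over probe sets (GLUL had a limma adjusted p of 0.0561, or 0.029 over genes with 1 probe set each).

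Other factors of the heart were examined through a list of 20 genes, of which 19 had a probe set and 15 were tested. Only ISL1, a LIM-homeodomain factor of heart progenitors that is also made in placodes and neurons, passed, and it rose in both of its probe sets. It had 5.70, 5.53 and 6.04 in the controls, against 8.32, 8.89 and 8.67 in the induced samples in the first of them, a log2 difference of 2.87 (standard error 0.22, limma adjusted p = 0.00294), and 2.79 (standard error 0.279, adjusted p = 0.0122) in the second, which lost its call without induced sample 2 (2.72, adjusted p = 0.114) and without normalization between arrays (2.70, adjusted p = 0.0505). IRX4, a homeobox gene of the ventricle, had 6.68, 5.26 and 6.26 in the controls, against 7.73, 7.23 and 7.62 in the induced samples. Its log2 difference of 1.46 (standard error 0.33) did not pass (adjusted p = 0.161), and its other tested probe set gave 1.26. GATA4, a zinc-finger factor that binds with NKX2-5 to heart genes, lay lower, at 5.36, 5.08 and 5.02 in the controls, against 4.28, 4.61 and 4.55 in the induced samples. The groups did not overlap, and its log2 difference was -0.67 (standard error 0.172, adjusted p = 0.217). The induced mean of GATA4, 4.48, lies below the filter, so it was tested only because of its control arrays. Its signals were under 16 units on 5 of 6 arrays.

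MYOCD, a co-activator of smooth and cardiac muscle genes, had a log2 difference of -0.66 (standard error 0.227, limma adjusted p = 0.354). Another probe set of MYOCD lay below the filter, at -0.080 when fitted without one. TBX20, a T-box factor of the heart, lay below the filter, its brightest signal being 24.8 units. Over the 25 tested probe sets of the list, 11 were above and 14 below the controls, with a median of -0.15 beside 0.0091 over all, and the 2 that passed were both of ISL1, against 0.0973% of all probe sets. Some genes have several of these 25 probe sets.

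For other heart muscle genes, 28 were listed, 23 had a probe set and 16 were tested, and none passed by limma, with 7 of 28 probe sets at an unadjusted p under 0.05, beside 9.76% of all tested. Of these 28, 21 lay below the controls and 7 above, where 48.3% of all probe sets lay below, and the median was -0.27 beside 0.0091 over all. The 28 cover only 16 genes, with several probe sets each for TPM1 and NEBL, so they are not separate readings of as many genes. NEBL, a thin-filament protein of the Z-disc region, had a log2 difference of -0.49 (standard error 0.157, adjusted p = 0.317) in 1 probe set, and -0.27 to 0.14 in its other tested ones. MYL2, the regulatory light chain of the ventricle, had 5.81, 5.03 and 5.41 in the controls, against 4.50, 4.70 and 5.03 in the induced samples, a log2 difference of -0.67 (standard error 0.231, adjusted p = 0.354). The MYL2 groups overlapped, and its signals were under 16 units on 4 of 6 arrays. TPM1, a tropomyosin, had -0.47 in 1 probe set (standard error 0.182, adjusted p = 0.434) and -0.46 to 0.028 in the others. DES, which encodes the intermediate filament desmin, lay the other way at 0.51 (standard error 0.197, adjusted p = 0.43), with signals of at most 12.1 units. The control mean of DES in this probe set lies below the filter, so that it was tested only because of its induced arrays. Another probe set of DES lay below the filter, and its log2 difference was -0.086 when fitted without one. The other 7 genes of the list with a probe set lay below the filter.

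**Figure D4:**
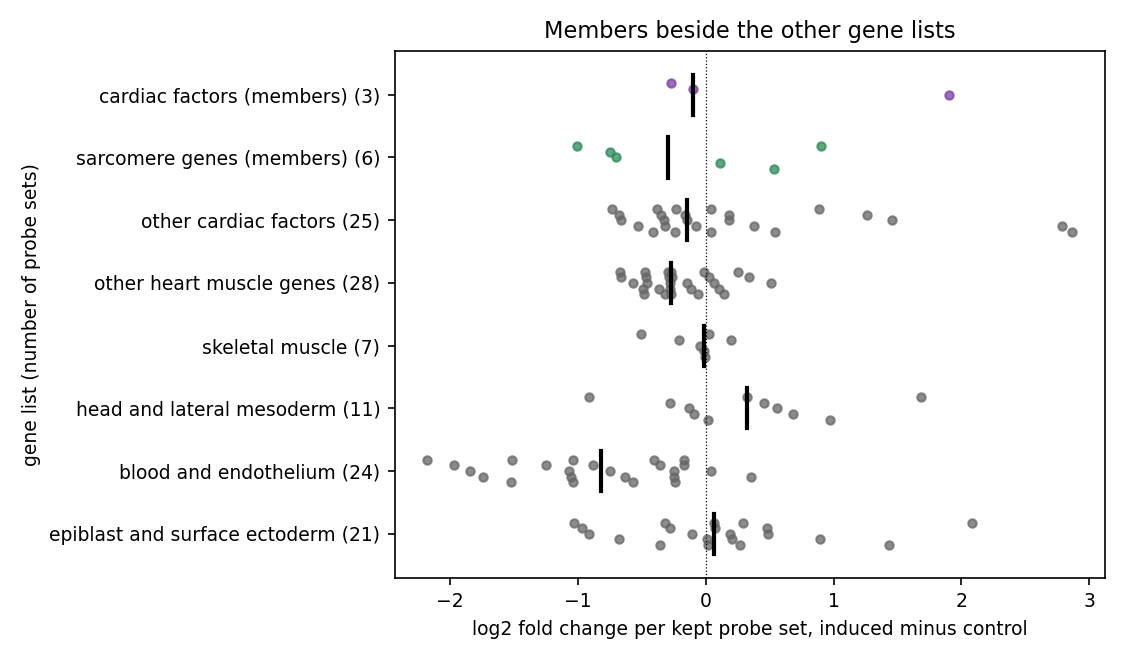
Log2 fold change (x axis, induced minus control) of each tested probe set, by gene list (y axis, with the number of probe sets), black bars marking medians. Blood and endothelium lie mostly to the left, at a median of -0.82, other heart muscle genes mostly to the left at -0.27, and the 2 points farthest right belong to ISL1.

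Markers of other tissues were read on the same arrays, and their part in the values above was not tested. In bulk samples, fewer cells of a type and less RNA per cell cannot be told apart. The head and lateral mesoderm list also holds genes of other mesoderm, such as MSGN1 and TBX6, so it does not stand for tissue like the graft alone. It had 16 genes, 14 with a probe set and 8 tested. None of them passed by limma, and 2 of 11 probe sets had an unadjusted p under 0.05, beside 9.76% of all tested. Of the 11, 7 lay above the controls and 4 below. PRRX1 and FOXC2 gave several of those above, so the median and mean of the list lean on these genes. The median log2 difference was 0.32, and the mean of the list, with the control mean set to 0, was 0.43, 0.57 and -0.10 on induced arrays 1 to 3. Its summed normalized signal ran from 349 to 1770.5 units among controls and from 928 to 1955 among induced arrays, so the groups overlapped. FOXC2, a forkhead gene of head mesoderm, had 5.22, 4.66 and 5.22 in the controls, against 6.45, 6.08 and 5.47 in the induced samples, a log2 difference of 0.97 (standard error 0.271, adjusted p = 0.254). Its other probe set had 1.69 (standard error 0.85, adjusted p = 0.579), with groups that overlapped. SNAI2, of migrating mesenchyme, went the other way at -0.91 (standard error 0.337, adjusted p = 0.41), and PRRX1 and PDGFRA, of mesenchyme, had 0.45 (standard error 0.336) and -0.28 (standard error 0.212). The other tested probe sets of PRRX1 had 0.56 (standard error 0.475) and 0.69 (standard error 0.553). TBX1, MEOX1, MSGN1, TBX6, FOXF1 and CYP1B1 lay below the filter.

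Blood and endothelium markers were lower, with 22 of 24 tested probe sets below the controls, a median of -0.82 and 15 at an unadjusted p under 0.05. Over all probe sets tested, 48.3% lay below, the median was 0.0091 and 9.76% had an unadjusted p under 0.05. The list had 20 genes, 17 with a probe set and 15 tested, so some genes count more than once among the 24 probe sets. TAL1 and LMO2, factors of blood and vessel precursors, and KDR, a receptor for vascular growth factor, passed as lower, as did 0.031% of all probe sets tested. The log2 differences of TAL1, LMO2 and KDR were -1.74 (standard error 0.203, limma adjusted p = 0.0187), -2.18 (standard error 0.296, adjusted p = 0.0301) and -1.84 (standard error 0.216, adjusted p = 0.0187). The other tested probe set of each gene lay less far below 0 and did not pass by limma. These had -0.17 for TAL1 (adjusted p = 0.895), -0.75 for LMO2 (adjusted p = 0.203) and -0.25 for KDR (adjusted p = 0.654). The embryonic globin gene HBZ had -1.52 (standard error 0.298, adjusted p = 0.119). Without control sample 3, induced 1 or induced 2, each of TAL1, LMO2 and KDR lost its call (adjusted p of 0.0509 to 0.131 by limma), as did TAL1 and LMO2 without control 2 (0.0581 and 0.0969), while all 3 held without control 1 or induced 3. Over the 16 other settings KDR passed in 11, TAL1 in 10 and LMO2 in 8. All 3 lost the call without normalization between arrays (adjusted p of 0.109 to 0.256) and without both arrays of repeat 1 (0.121 to 0.225), and LMO2 also with the replicate block (0.0722) and with 1 in place of 16 (0.0694). With the control mean set to 0, the mean of the list was -0.84, -1.16 and -0.56 on induced arrays 1 to 3, and its summed signal was 3865 to 4209 units among controls and 910.1 to 2222 among induced arrays.

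Skeletal muscle, which shares sarcomere genes with the heart in the embryo, was examined next. Of 11 genes listed, 10 had a probe set and 5 were tested, with a median log2 difference of -0.015. None of the 7 probe sets passed by limma, and 1 had an unadjusted p under 0.05, beside 9.76% of all tested. The regulators MYOD1, MYF5 and MYOG lay below the filter, with signals no higher than 12.7, 8.2 and 10.5 units. CHRNA1, a subunit of the muscle acetylcholine receptor, had -0.50 (standard error 0.154, adjusted p = 0.3) in 1 probe set and 0.023 in its other tested one. The induced mean of the first, 4.25, lies below the filter, so it was tested only because of its control arrays. ACTA1, the skeletal actin, had -0.21 (standard error 0.176), MYF6 0.20 (standard error 0.213) and TNNT3 -0.046 (standard error 0.23). On the epiblast and surface ectoderm list the median was 0.062 and none of 21 probe sets passed by limma. Of these 21, 8 had an unadjusted p under 0.05, beside 9.76% of all tested. OTX2, an anterior factor, had 2.08 (standard error 0.414, adjusted p = 0.124), GATA3 0.89 (standard error 0.259), DSP, a desmosome gene, -1.03 (standard error 0.298) and KRT7 -0.32 (standard error 0.106).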

How the data were processed

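Total RNA of 3 control and 3 induced samples, labelled as biological repeats, was read on Affymetrix arrays, as the labels' protocols describe. Nothing says that repeats came from separate embryos, so each p-value reflects only how much these samples vary, which may be technical. The deposited table holds 1 linear intensity per probe set and array, made with MAS5 per the submitters' processing notes. The sources used here do not give its settings. There are 37690 probe sets, 6 columns and 0 further columns of sample values.

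From these intensities, log2(signal + 16) was computed and quantile normalized, and probe sets with a mean under the 40th percentile (4.50) were left out. Quantile normalization removes any shift common to most genes. The contrast was fitted with limma 3.58.1 under R 4.3.3 (lmFit, eBayes with trend, group as the only term, two-sided, Benjamini-Hochberg over 22614 probe sets, threshold 0.05). The procedure was also run on simulated arrays with planted changes and independent noise. Those lack the differences between arrays seen here, so that run cannot vouch for single calls. The pseudocount, filter, normalization, repeat number as a block, variance prior, gene representation and single arrays were varied.

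Names came from GEO's platform annotation, with symbols updated by Entrez number through RefSeq genes of GRCg7b. Of all probe sets, 177 had several symbols and 10347 none. Coordinates are left out because the array names no build. Members and lists were chosen with earlier results of these data known. The genes named are all members, up to 4 genes of each list with the lowest p besides any that passed, and the 5 most like NKX2-5. CDH1, EPCAM, TBX20 and genes below the filter are named besides, to describe a list.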

Additional observations from a re-analysis of the deposited data

How the results depend on the processing

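Signal over background limits these results: TBX5 and MEF2C were under 16 units on all arrays, and NKX2-5 and CSRP3 were weak in the controls. Over the 16 other settings, 1 member probe set passed in 9, as in the reported one. Without normalization between arrays 0 members and 12 probe sets in all passed by limma, against 22 as reported, and without both arrays of repeat 1 these were 0 and 5. With a replicate block on values that were not normalized, 3 members (NKX2-5, CSRP3 with adjusted p = 0.00401 and MYL4 with 0.0265 by limma) and 587 probe sets (188 higher, 399 lower) passed. With 1 probe set per gene 38 of 10118 genes passed and the sarcomere median was -0.70. Leaving out 1 array at a time gave 0 to 1 members and 2 (without induced sample 2) to 110 (without induced sample 3) probe sets. The split of higher and lower calls was 15 to 7 as reported, 12 to 12 with median centring and 7 to 5 without normalization.

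The replicate block on normalized values left 1 member (NKX2-5, adjusted p = 0.0461) and 26 probe sets, 13 higher and 13 lower. Deviations of same-numbered samples correlated at 0.55, -0.15 and 0.069 after normalization, and at 0.69, -0.031 and 0.23 before it. In both cases 1 of 3 controls correlated best with its own number. With 3 arrays per group these values cannot decide whether same-numbered samples form pairs. The reported setting does not use the numbers, and the block settings do. MYL4, ACTC1, TNNT2 and HAND1 stayed below 0 in all 16 settings, and CSRP3 and the first ACTN2 probe set above 0. HAND2 was above 0 in 2 of 16, and the second ACTN2 probe set below 0 in 1 of 15. The median of the factors ran from -0.31 to 0.12 when 1 array was left out, and that of the sarcomere genes from -0.36 to -0.14. The cause of these differences was not tested.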
